A study of Sus scrofa with 13 samples.

Results

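The hypoxia response in pig liver was followed in 10 genes, EPO, STC1, VEGFA, ADM, BNIP3, EGLN3, PDK1, ANKRD37, NDRG1 and HIF1A, out of 35670 genes in the count table. They were chosen by gene symbol, each symbol had 1 entry, and all 10 passed the filter on low counts, which a gene may pass through the group where it is high. The 13 liver libraries came from female Yorkshire pigs whose age was not given. In the baseline group (2 libraries, named 1a and 2) the liver had not been made ischemic. In the ischemic control group (3 libraries) the liver had 45 min of ischemia and 6 h of reperfusion without cells. In the arterial infusion and portal infusion groups (4 libraries each) the same ischemia and reperfusion was combined with 3 M (M for mega) human bone marrow mesenchymal stromal cells (BM-MSCs) per kg of body weight, infused into the hepatic artery in the first group and into the portal vein in the second. The 8 libraries of the last 2 groups are called infused livers here. The infused cells were human and the reads were assigned to pig genes. An animal given cells through the artery had lasting trouble with that artery after clamping. Another, given cells through the portal vein, had a pulmonary air embolism and its experiment was stopped early. The library of either animal, if it has one here, was not named. Baseline samples were biopsies taken before the liver was clamped, and which animal each library came from was not given, so a baseline library may share an animal with a library at 6 h, and the p-values measure the spread between these libraries.

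Cells sense oxygen through the hypoxia-inducible factors (HIFs). With oxygen, EGLN prolyl hydroxylases mark the HIF alpha subunits, and the VHL ubiquitin ligase then directs their destruction. When oxygen falls the subunits persist, pair with ARNT and switch on genes for red cell production, vessel growth and tone, glycolysis and mitochondrial turnover. The liver is the main source of erythropoietin before birth and keeps some capacity to make it in the adult, where the kidney dominates.

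Totals ranged from 18975413 to 35949178 counts per library (median 30260803). Hepatocyte markers were abundant in every library, with a summed level of 34015 to 131167 counts per M reads (CPM, with TMM scaling) over the 10 of 11 markers found, so the tissue label held. On the first principal component, which carried 48.0% of the variance over 16481 genes, 4 livers stood apart at 69.4 to 145, namely ischemic control 2, arterial infusion 1, portal infusion 1 and portal infusion 4, with the other 9 libraries between -67.4 and -4.49. The same 4 livers had the lowest hepatocyte marker sums of the 11 livers at 6 h, from 34015 to 65954 CPM against 79583 to 125249 CPM in the other 7. Single markers did not all follow the sum. FGB was lowest in these 4 (5093 to 11999 CPM). TTR was highest in ischemic control 2 and arterial infusion 1 (5587 and 3505 CPM). ALB in arterial infusion 1 (36727 CPM) was above ischemic control 1 (24091 CPM). The 4 livers had 13581 to 16993 genes with reads, where the other 7 had 15831 to 20282, and only arterial infusion 2 of these fell within the range of the 4. Of these 4, ischemic control 2, portal infusion 1 and portal infusion 4 had the lowest totals of the 13 libraries (18975413, 20563848 and 21444917 counts). Arterial infusion 1 had 30260803 counts. The part of depth in the separation of these livers was not tested. In bulk tissue, fewer cells of a type and less RNA per cell cannot be told apart. The main differences of EPO, STC1, EGLN3 and BNIP3 that rest on these livers are given with and without them.

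Ischemic controls were set against baseline to describe the response to ischemia and reperfusion. This contrast was in view when the genes were chosen, so its values are a description without a test. EPO, STC1, ADM, BNIP3, EGLN3 and NDRG1 were higher in all 3 controls than in both baseline livers. VEGFA and PDK1 were lower in all 3, and HIF1A and ANKRD37 overlapped. Over all 16481 genes tested, 15.2% were higher and 15.6% were lower without overlap in this contrast, beside 6 and 2 of the 10. In edgeR 0 genes passed an adjusted p of 0.05 and 720 (4.37%) had an unadjusted p under 0.05, while DESeq2 called 166 genes on the 5 libraries compared and 5 on all 13 (MFSD2A, NOCT, KBTBD6 and 2 without a symbol). EPO and STC1 had the largest fold changes of the 10, on the log2 scale 4.26 ± 2.03 (SE) for EPO and 4.28 ± 1.46 for STC1. BNIP3 was at 1.86 ± 0.99 and EGLN3 at 2.73 ± 0.82. Without the 4 livers that stood apart, the values were 3.74 ± 1.13 for EPO, 4.04 ± 1.01 for STC1, 1.08 ± 0.39 for BNIP3 and 2.63 ± 0.53 for EGLN3.

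**Figure D1:**
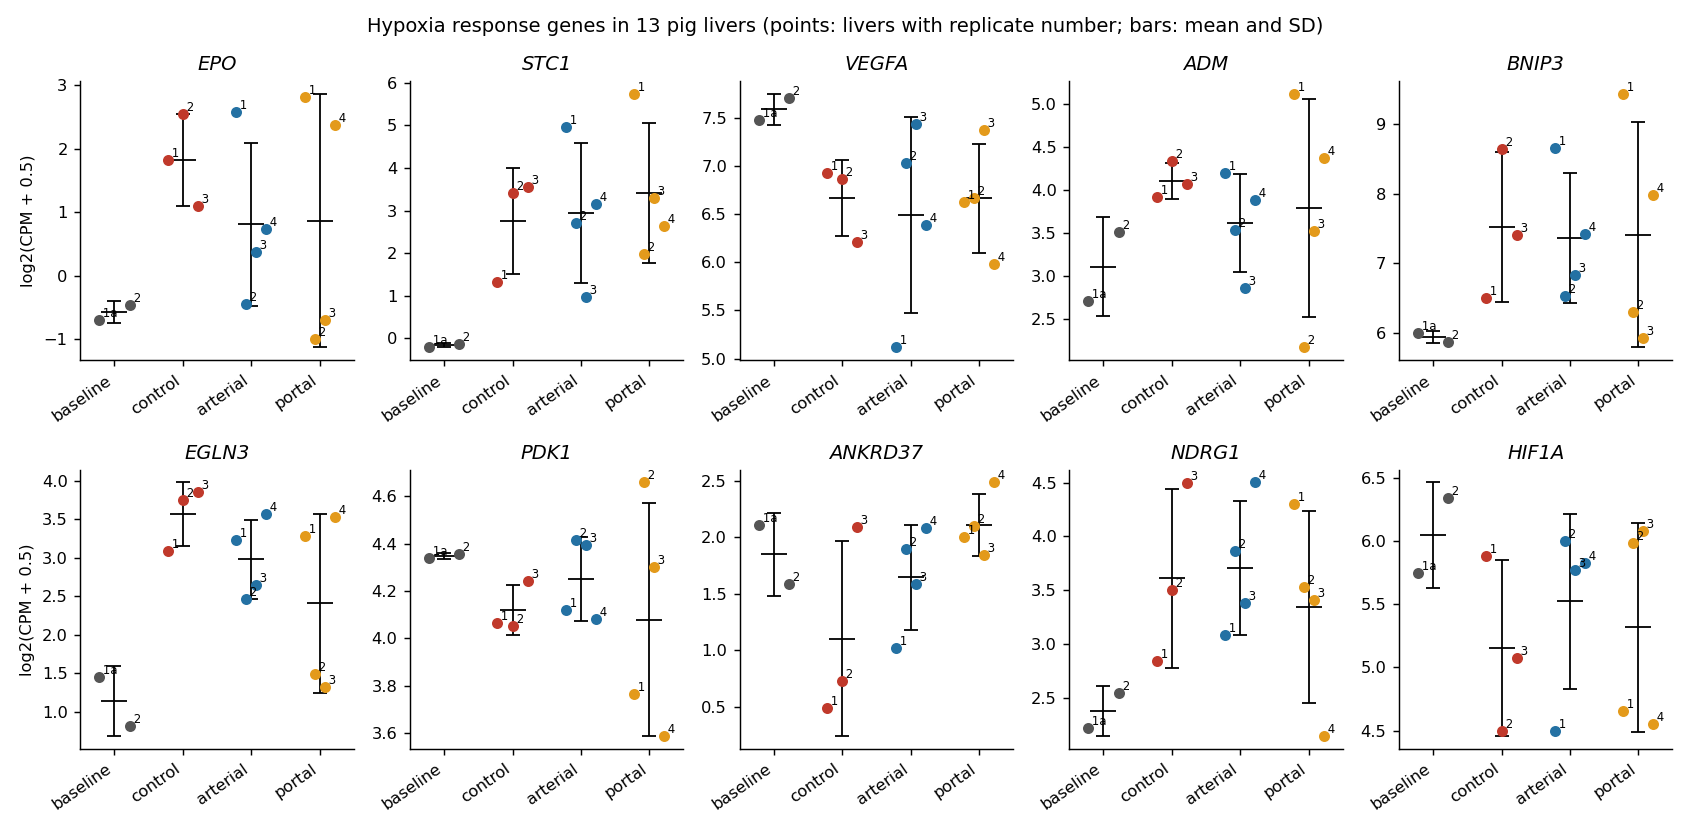
Levels of the 10 genes as log2(CPM + 0.5) on the vertical axes, by group on the horizontal axes. Each point is a liver library with its replicate number, and bars give the group mean and SD (n = 2, 3, 4 and 4). STC1 lies above both baseline livers in all 11 livers at 6 h and VEGFA below both, whereas EPO spans from the baseline level to 6.52 CPM within the portal infusion group.

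EPO encodes erythropoietin, the hormone that drives red cell production (ENSSSCG00000007673, Sscrofa11.1 chromosome 3, 8620508 to 8622936). The baseline livers had 0.115 and 0.229 CPM, from 4 and 6 reads. The ischemic controls 1 to 3 had 3.05, 5.36 and 1.65 CPM. All 3 controls were above both baseline livers, by a fold change of 19.2 that rests on those few baseline reads. With arterial infusion the level was 5.50, 0.232, 0.795 and 1.17 CPM in livers 1 to 4. With portal infusion it was 6.52 CPM in liver 1, 0.113 CPM from 3 reads in liver 3 and 4.68 CPM in liver 4, while liver 2 had 0 reads, which allows up to 0.105 CPM. Of the 11 livers at 6 h, 9 were above both baseline livers, arterial infusion 2 by little (0.232 against 0.229 CPM). Portal infusions 2 and 3 were below both, portal infusion 3 by little (0.113 against 0.115 CPM). The 4 highest livers were portal infusion 1, arterial infusion 1, ischemic control 2 and portal infusion 4, the 4 that stood apart on the first principal component and had the lowest hepatocyte marker sums. The part of the lower hepatocyte marker sums in the EPO level was not tested.

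STC1 encodes stanniocalcin-1, a secreted glycoprotein known as a HIF target (ENSSSCG00000009642, chromosome 14, 7952175 to 7961365). The baseline livers had 0.374 and 0.419 CPM, from 13 and 11 reads. The ischemic controls 1 to 3 had 2.00, 10.2 and 11.2 CPM, all above baseline. With arterial infusion it was 30.8, 6.00, 1.47 and 8.36 CPM in livers 1 to 4. With portal infusion it was 53.1, 3.47, 9.35 and 5.74 CPM. Every one of the 11 livers at 6 h was above both baseline livers, as were 3.25% of all genes tested, and the highest, portal infusion 1, was 36.1 times the lowest, arterial infusion 3. Portal infusions 2 and 3 had STC1 above both baseline livers, and EPO at 0 and 3 reads beside 4 and 6 reads at baseline.

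VEGFA encodes the main endothelial growth factor (chromosome 7, 38746393 to 38762282) and lay on the other side of baseline from EPO and STC1. The baseline livers had 178 and 208 CPM and the ischemic controls 121, 116 and 73.7 CPM. With arterial infusion the livers had 34.2, 131, 174 and 83.2 CPM, and with portal infusion 98.6, 101, 165 and 62.8 CPM. All 11 livers at 6 h were below both baseline livers, as were 3.80% of all genes, although arterial infusion 3 at 174 CPM was close to the lower baseline value. ADM encodes adrenomedullin, a vasodilator peptide. Its level was 6.01 and 10.9 CPM at baseline and 14.6, 19.6 and 16.3 CPM in the controls. The infused livers ran from 3.99 CPM in portal infusion 2 through a median of 12.7 to 34.2 CPM in portal infusion 1. They covered the whole range of both other groups.

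EGLN3 encodes an oxygen-sensing prolyl hydroxylase that is itself induced by HIF. It had 2.24 and 1.26 CPM at baseline, 8.01, 12.9 and 13.97 CPM in the controls and 8.91, 5.01, 5.75 and 11.4 CPM with arterial infusion. With portal infusion it was 9.23, 2.31, 2.00 and 11.02 CPM. Portal infusion 3 lay between the baseline livers, portal infusion 2 just above them, and the other 6 infused livers were higher. HIF1A encodes the HIF-1 alpha subunit, which is controlled mainly at the protein level. Its RNA was at 53.3 and 80.4 CPM at baseline, 58.5, 22.1 and 33.2 CPM in the controls, 22.04, 63.4, 54.0 and 56.2 CPM with arterial infusion and 24.7, 62.7, 67.0 and 22.9 CPM with portal infusion. Its 4 lowest livers were the 4 highest for EPO.

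BNIP3 encodes a mitochondrial outer membrane protein that marks mitochondria for removal. Its level was 63.3 and 58.0 CPM at baseline and 89.9, 400.2 and 169 CPM in the controls. It was 401, 92.1, 113 and 171 CPM with arterial infusion and 692, 77.9, 60.3 and 253 CPM with portal infusion. The 4 highest livers for BNIP3 were also the 4 highest for EPO, and portal infusion 3 lay between the baseline livers. PDK1, a kinase that inhibits pyruvate dehydrogenase and so limits the making of acetyl-CoA from pyruvate, had the narrowest range of the 10 genes. It was 19.7 and 20.0 CPM at baseline, 16.2, 16.1 and 18.4 CPM in the controls and 11.5 to 24.7 CPM (median 18.05) in the infused livers.

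NDRG1, a stress-responsive gene, had 4.14 and 5.33 CPM at baseline and 6.65, 10.8 and 22.03 CPM in the controls. The infused livers had 3.91 to 22.2 CPM (median 10.6), and only portal infusion 4 was under the baseline livers. ANKRD37 encodes an ankyrin repeat protein known as a HIF-1 target. It had 3.82 and 2.51 CPM at baseline, 0.907, 1.16 and 3.75 CPM in the controls and 1.53 to 5.11 CPM (median 3.36) in the infused livers. Of the 11 livers at 6 h, 1 was above both baseline livers for ANKRD37 and 4 were below both.

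**Figure D2:**
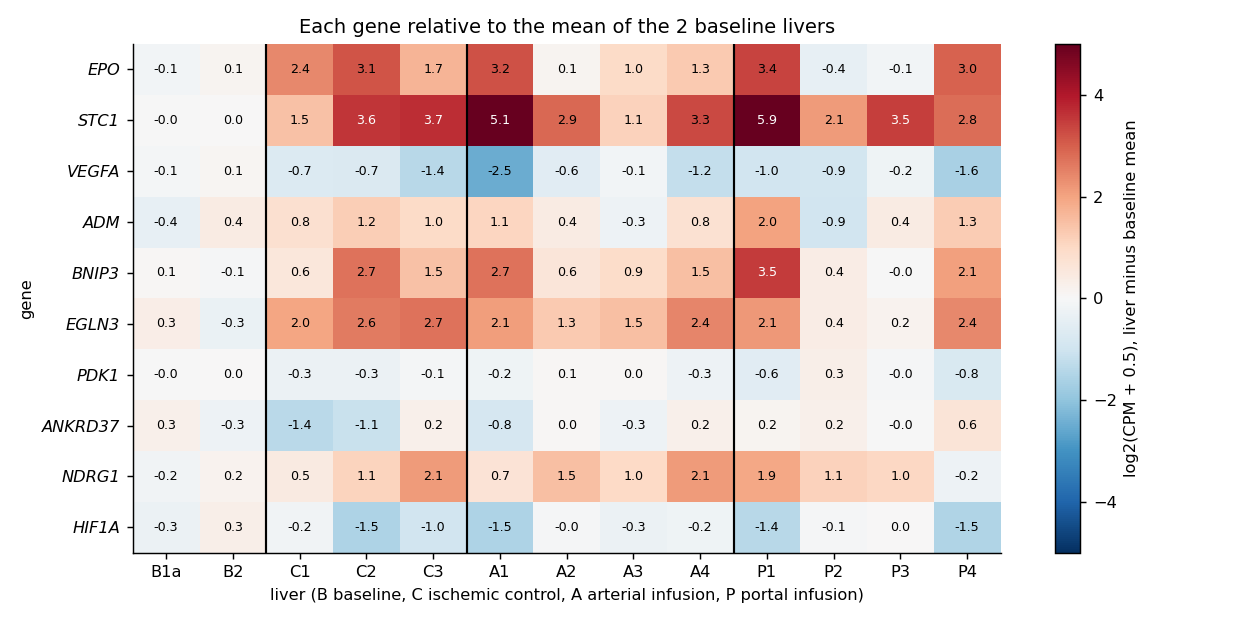
Difference of each of 13 liver libraries (columns) from the mean of the 2 baseline libraries, as log2(CPM + 0.5), for the 10 genes (rows). Red is higher and blue is lower than the baseline mean. The STC1 row is red in all 11 livers at 6 h, the VEGFA row is blue in all 11, and the EPO row is strongly red in portal infusion 1, arterial infusion 1, ischemic control 2 and portal infusion 4.

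Infused livers were set against baseline to see which of these differences were present in livers that had received cells. The 2 baseline libraries are shared with the contrast above, so this is not independent of it. STC1 was higher in 8 of 8 infused livers than in both baseline livers and VEGFA was lower in 8 of 8, beside 4.16% of all genes higher and 5.75% lower without overlap. STC1 differed by 5.17 ± 1.47 (SE) on the log2 scale, with means of 14.8 ± 17.95 CPM (SD, n = 8) and 0.396 CPM at baseline. The exact permutation test, two-sided, gave p = 0.0444 for STC1, where the smallest p this design allows is 0.0222. In edgeR the adjusted p for STC1 was 0.886 over all genes. Without the filter on low counts it was 0.00237, and in DESeq2 it was 0.00522 on the 10 libraries compared and 0.00198 on all 13, so the call for STC1 depends on the fit. In the other 18 alternatives the adjusted p for STC1 was 0.527 to 1.00.

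EGLN3 differed by 1.97 ± 0.73 (exact permutation p = 0.0444) and was above both baseline livers in 7 of 8. EPO differed by 3.74 ± 1.90 (exact permutation p = 0.244) and was above both in 6 of 8. BNIP3 differed by 1.92 ± 0.92 (exact permutation p = 0.133) and NDRG1 by 1.37 ± 0.63 (exact permutation p = 0.0889), each above both baseline livers in 7 of 8. VEGFA differed by -0.86 ± 0.47 (exact permutation p = 0.111). ADM at 0.80 ± 0.63, HIF1A at -0.52 ± 0.50, PDK1 at -0.15 ± 0.35 and ANKRD37 at 0.04 ± 0.64 had permutation p-values of 0.200 to 0.978 (exact). In edgeR 0 of the 16481 genes passed an adjusted p of 0.05, and 683 (4.14%) had an unadjusted p under 0.05, among them STC1, EGLN3 and NDRG1. DESeq2 called 16 genes on the libraries compared and 17 on all 13. Without the 4 livers that stood apart, the difference from baseline was 0.27 ± 1.13 for EPO and 0.62 ± 0.34 for BNIP3. It was 1.18 ± 0.46 for EGLN3 and 3.87 ± 0.95 for STC1. The livers left out were the 4 highest of the 13 for EPO and for BNIP3, but ranked 1, 2, 4 and 8 for STC1. A smaller difference for EPO and BNIP3 was therefore built into this choice, and the genes cannot be compared by it.

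The effect of the infused cells was examined by setting infused livers against ischemic controls, which had the same ischemia. The 3 controls are shared with the contrast that was in view when the genes were chosen. None of the 10 genes separated the groups. In edgeR 0 genes passed the adjusted p of 0.05 and 353 (2.14%) had an unadjusted p under 0.05, with none of the 10 among them. DESeq2 called 0 genes on the libraries compared and 1, CCL3L1, on all 13. Of all genes, 0.613% did not overlap between the groups, and 0 of the 10 did so.

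EPO had a mean of 2.38 ± 2.71 CPM (SD, n = 8) in infused livers and 3.35 ± 1.87 CPM (SD, n = 3) in controls, a difference of -0.52 ± 1.19 (SE) on the log2 scale with an exact permutation p of 0.345. Of the 8 infused livers, 3 exceeded the middle control and the other 5 were under the lowest control. STC1 differed by 0.89 ± 0.91 (exact permutation p = 0.709), and 5 of 8 infused livers were within the range of the controls. Without portal infusion 1 the difference of STC1 was 0.13. EGLN3 differed by -0.75 ± 0.52 (exact permutation p = 0.121). ANKRD37 differed by 0.74 ± 0.57 with an exact permutation p of 0.0485, the smallest of the 10 genes, and 6 of 8 infused livers lay within the range of the controls. It was 0.40 without ischemic control 1 and 1.63 without ischemic control 3. HIF1A, ADM, NDRG1, PDK1, BNIP3 and VEGFA differed by -0.20 to 0.30 on the log2 scale, less than their standard errors of 0.30 to 0.69. Of 30 permutation tests over the comparisons of infused livers, 3 had a p under 0.05 (STC1 and EGLN3 against baseline, ANKRD37 against controls), and these p-values are not adjusted.

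Without the 4 livers that stood apart, the difference of infused livers from controls was -3.48 ± 0.84 for EPO (edgeR adjusted p = 0.321, and 0.723 to 1.00 in the other alternatives), -1.45 ± 0.40 for EGLN3 and -0.17 for STC1. In this choice the controls 1 and 3 had 3.05 and 1.65 CPM of EPO, and the remaining 5 infused livers had 0 to 1.17 CPM. This selection was made after the data were seen and removed the highest of the 3 controls and the 3 highest infused livers for EPO.

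**Figure D3:**
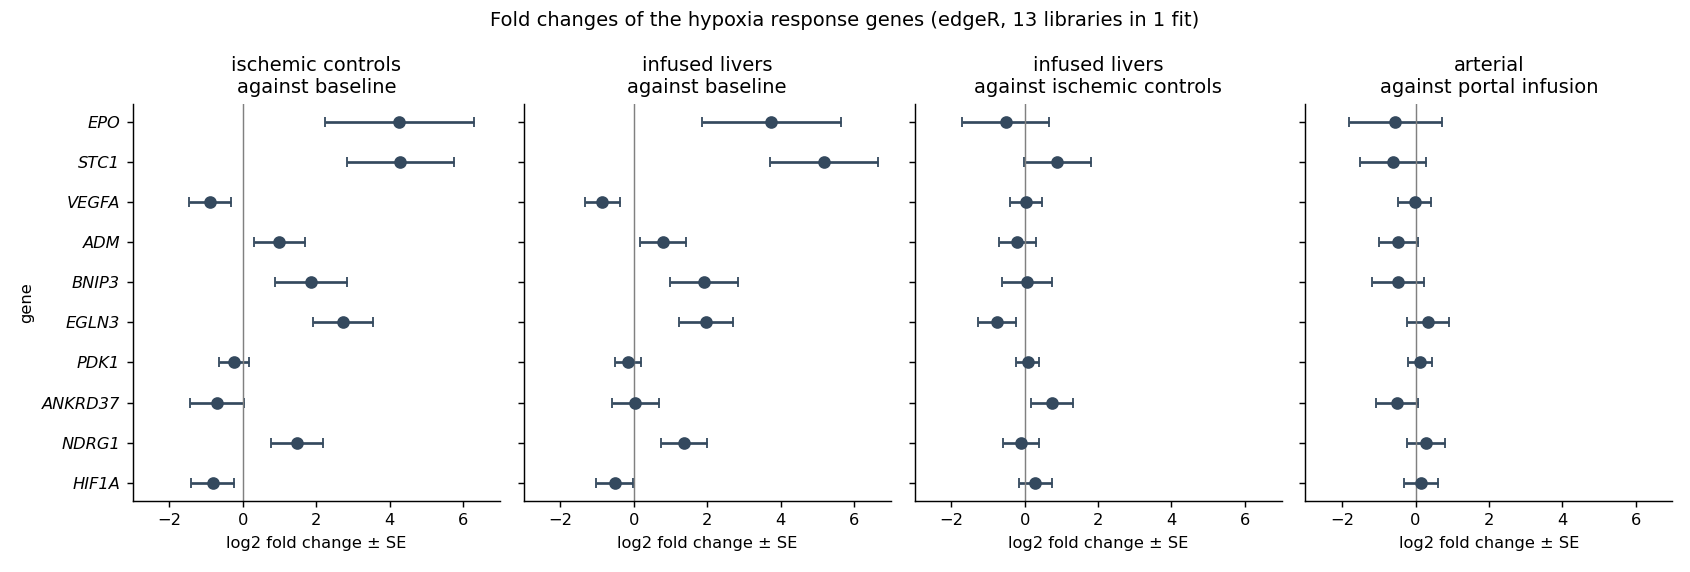
Log2 fold changes (horizontal axes) of the 10 genes (vertical axis) in 4 comparisons, with bars of 1 SE from edgeR over all 13 libraries. EPO and STC1 lie furthest to the right against baseline, with the widest bars, and the points for infused livers against ischemic controls lie between -0.75 and 0.89.

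The route of infusion was examined by setting arterial against portal infusion, which shares no library with the contrast used to choose the genes. None of the 10 separated the routes, beside 1.28% of all genes without overlap. EPO differed by -0.55 ± 1.27 (SE) on the log2 scale and STC1 by -0.62 ± 0.91. The remaining genes ran from -0.49 ± 0.57 for ANKRD37 to 0.34 ± 0.56 for EGLN3, and the exact permutation p-values of the 10 were 0.171 to 0.971, where 0.0286 is the smallest possible with 4 against 4. In edgeR 0 genes passed the adjusted p of 0.05 and 396 (2.40%) had an unadjusted p under 0.05. DESeq2 called 0 genes on the libraries compared and 1, DDIT4L, on all 13. The EPO direction rested on portal infusion 1, without which the difference was 0.27 ± 1.34. It was 5.02 ± 1.53 without portal infusions 1 and 4 and 3.65 ± 1.195 without all 4 livers that stood apart. Both of these fits left only portal infusions 2 and 3 in that group, with 0 and 3 reads of EPO. The first of them kept arterial infusion 1, with 173 reads. BNIP3 moved from -0.48 to 0.58, 1.495 and 0.88 under these 3 choices.

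Against ischemic controls, 0 of the 10 genes separated either route, beside 3.14% of all genes for arterial and 3.72% for portal infusion. In edgeR 0 genes passed the adjusted p for either route, with 258 (1.57%) and 460 (2.79%) genes at an unadjusted p under 0.05. DESeq2 called 0 and 3 genes on the libraries compared and 0 and 4 on all 13 (INSIG1, DDIT4L, PCSK1N and 1 without a symbol). EPO averaged 1.93 ± 2.42 CPM (SD, n = 4) with arterial and 2.83 ± 3.29 CPM (SD, n = 4) with portal infusion. STC1 averaged 11.7 ± 13.1 CPM with arterial and 17.9 ± 23.6 CPM with portal infusion. In both genes and both groups the SD exceeded the mean.

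EPO and STC1 were then compared with the classical targets liver by liver. Because 4 livers stood apart, relations between EPO or STC1 and the rest of the 10 genes were tested within the other 7 only, as 17 relations on log2(CPM + 0.5). These 7 were ischemic controls 1 and 3 and 5 infused livers, and the permutation ignored group. The 2 controls had the highest EPO of the 7, 3.05 and 1.65 CPM against 0 to 1.17 CPM. A group difference and a relation between livers therefore cannot be told apart here. Leaving out the 4 highest livers for EPO also narrowed its range. EPO went with EGLN3 (Pearson r = 0.835, exact permutation p = 0.0246, adjusted 0.211, and Spearman rho = 0.857, exact permutation p = 0.0238, adjusted 0.135). It ran against PDK1 (r = -0.816, exact permutation p = 0.0248, adjusted 0.211, and rho = -0.857, exact permutation p = 0.0238, adjusted 0.135). EPO and ADM had r = 0.683 (exact permutation p = 0.0915, adjusted 0.311) and rho = 0.857 (exact permutation p = 0.0238, adjusted 0.135). After leaving out ischemic control 1 and portal infusion 2, the 2 livers farthest from the median of EPO, r was 0.938 with EGLN3, -0.557 with PDK1 and 0.400 with ADM over 5 livers.

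EPO and STC1 had, in the 7 livers, r = -0.174 (exact permutation p = 0.695, adjusted 0.792) and rho = 0.00 (exact permutation p = 1.00, adjusted 1.00). STC1 had its highest r with NDRG1, 0.738 (exact permutation p = 0.0653, adjusted 0.311), with rho = 0.679 (exact permutation p = 0.110, adjusted 0.465). With the same 2 livers left out, r of EPO with STC1 was 0.0518. Without ischemic control 1 and arterial infusion 3, the 2 farthest from the median of STC1, r of STC1 with NDRG1 was 0.527. None of the 17 relations passed an adjusted p of 0.05 within the 7 livers.

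**Figure D4:**
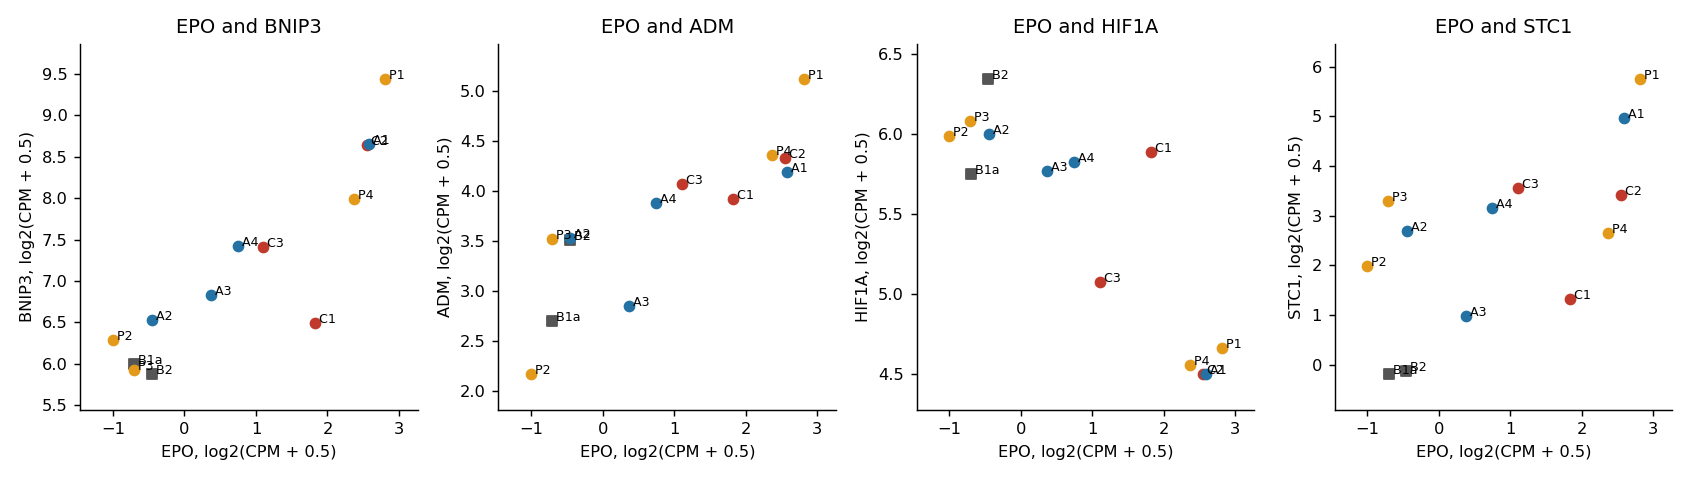
EPO (horizontal axes) against BNIP3, ADM, HIF1A and STC1 (vertical axes) in the 13 liver libraries, all as log2(CPM + 0.5), with points named by group letter (B baseline, C ischemic control, A arterial infusion, P portal infusion) and number. P1, A1, C2 and P4 sit together at high EPO with the highest BNIP3 and the lowest HIF1A, and STC1 is spread over those livers and the other 7.

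As a description with no test, over all 11 livers at 6 h the genes whose levels ranked most like EPO among 12824 genes with a symbol were ALKBH5 (Spearman rho = 0.982), DNAJC5 and ALKBH6 (0.973 each) and TCOF1 and PI4KB (0.964 each). In the other 7 livers alone, rho was 0.929 for ALKBH5 and 0.893 for each of the remaining 4. These 7 are part of the 11 over which the genes were picked, so this is no separate check. ALKBH5 had its 4 highest levels, 99.6 to 128 CPM, in the same 4 livers as EPO. ADM ranked at place 73 and STC1 at place 2147 by likeness to EPO. Those most like STC1 were DAPK2 (0.955), C19orf38 (0.927), HDAC7 (0.918), POU2AF3 (0.909) and CDK6 (0.900), and EPO stood at place 1169. In the other 7 livers alone, rho with STC1 was 0.964 for DAPK2 and HDAC7 and 0.857 for the remaining 3, with the same limit.

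The wider HIF pathway was described by 5 lists, of which 87 of 94 different genes were tested, the 10 included. In infused livers against ischemic controls 0 of the 87 passed the adjusted p of 0.05 in edgeR. An unadjusted p under 0.05 was found for 2 of the 87 (COX4I2 and LDHA), beside 2.14% of all genes. Of the 87, 30 lay above and 57 below 0, with a median of -0.13 on the log2 scale against -0.02 over all genes. The list of glucose transport and glycolysis held 19 of 20 genes below 0, with a median of -0.47. Among its most abundant genes, the difference was -0.29 ± 0.29 (SE) for GAPDH, -0.48 ± 0.33 for ENO1 and -0.50 ± 0.40 for ALDOA, all enzymes of glycolysis. PFKP, a phosphofructokinase, had the lowest value at -1.24 ± 0.82, and PGK1, phosphoglycerate kinase, the highest value outside the 10 at -0.02 ± 0.66. In the description of controls against baseline the same list had a median of 0.97. The same controls enter both contrasts with opposite sign, so these medians are not independent. Of its 20 genes, 10 were higher without overlap, ALDOA at 1.72 ± 0.59 among them, and 1 was lower. Over all genes tested, 15.2% were higher and 15.6% lower without overlap.

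The machinery list (13 of 18 tested) had a median of -0.01 in infused livers against controls. EPAS1, the HIF-2 alpha subunit, was at -0.11 ± 0.43, the coactivators CREBBP and EP300 at 0.21 ± 0.30 and -0.01 ± 0.31, EGLN1, the main oxygen-sensing hydroxylase, at -0.36 ± 0.37 and HIF3A at 0.42 ± 1.41. The vascular and secreted list (20 of 20) had a median of -0.08. It held the growth factor binding protein IGFBP1 at -0.69 ± 0.46, the chemokine CXCL12 at 0.23 ± 0.30, the VEGF receptor KDR at 0.59 ± 0.40 and the collagen cross-linking enzyme LOX at -0.95 ± 0.61.

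The list of mitochondrial, cell death and stress genes (16 of 17) had a median of -0.14, with TXNIP at -0.21 ± 0.32, DDIT4, an inhibitor of mTOR signalling, at -0.66 ± 0.47, HIGD1A at -0.42 ± 0.35 and BHLHE41 at 1.25 ± 0.77. COX4I2, a cytochrome oxidase subunit, had the lowest value, -3.16 ± 1.29, at levels of 0.131 CPM in infused livers and 0.774 CPM in controls. It was at 0 CPM in arterial infusion 2 and portal infusions 1, 3 and 4, so this value rests on few reads. The list of oxygen-sensing, chromatin and matrix enzymes (21 of 21) had a median of -0.03, with the iron genes TF at 0.22 ± 0.68 and TFRC at 0.73 ± 0.99, heme oxygenase HMOX1 at 0.29 ± 0.36, PPP1R3C at 1.31 ± 0.83 and PLOD2, a lysyl hydroxylase of collagen, at -1.09 ± 0.53.

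**Figure D5:**
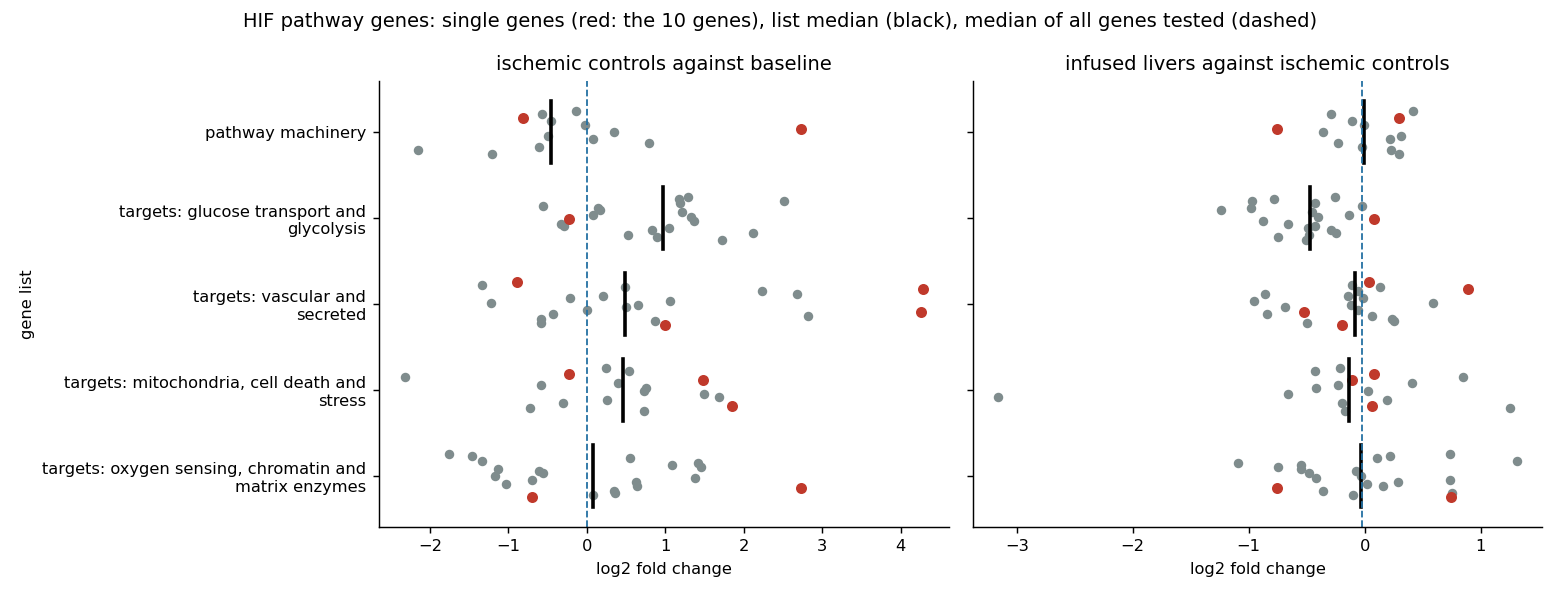
Log2 fold changes (horizontal axes) of single genes in 5 HIF pathway lists (vertical axis), for ischemic controls against baseline and infused livers against ischemic controls. Red points are the 10 genes, black bars the list medians and dashed lines the median of all genes tested. The glycolysis list has a median of 0.97 in the first contrast and -0.47 in the second. Both contrasts use the same ischemic controls, with opposite sign.

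Summed markers of other cells are given beside these values, and most of their ranges overlapped between groups. Macrophage markers in controls lay above the other groups, though the lowest control was little above baseline 1a (1443 against 1417 CPM). Between controls and baseline, neutrophil and sinusoidal endothelial markers did not overlap. Of all single genes tested in that contrast, 15.2% were higher and 15.6% lower without overlap. Summed macrophage markers (9 of 10 found) were at 1443 to 2256 CPM in controls, 834 to 1278 CPM in infused livers and 886 to 1417 CPM at baseline. Neutrophil markers (8 of 11) were at 47.7 to 52.9 CPM at baseline, 66.9 to 447 CPM in controls and 33.6 to 347 CPM in infused livers, and erythroid markers (6 of 9) at 37.9 to 68.0, 51.1 to 1019 and 38.3 to 605 CPM. Sinusoidal endothelial markers (9 of 10), among them the VEGFA receptor KDR, were at 586 to 694 CPM at baseline, 322 to 523 CPM in controls and 278 to 721 CPM in infused livers. Stellate and stromal markers (13 of 13) were at 716 to 1050, 421 to 1502 and 196 to 1257 CPM, and cholangiocyte markers (6 of 6) at 19.5 to 38.5, 23.5 to 106 and 23.4 to 236 CPM. LUM and RGS5 of the stromal, CD177 of the neutrophil, HBM, SLC4A1 and EPB42 of the erythroid and EPCAM and CFTR of the cholangiocyte markers were at 0 in at least 1 liver at 6 h. The part of these cells in the levels of the 10 genes was not tested.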

How the data were processed

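RNA from pig liver was sequenced in 13 non-directional libraries, so reads of a gene and of an antisense partner cannot be told apart. The deposited values are raw counts per gene, which the authors made with HISAT2 and FeatureCounts on Sscrofa11.1 with Ensembl 110 genes. All columns of the table matched a sample (0 did not). Genes passing filterByExpr (16481) were tested in edgeR 4.0.16 (R 4.3.3, limma 3.58.1) by the quasi-likelihood test with TMM factors, all 13 libraries in 1 fit, and Benjamini-Hochberg adjustment at 0.05. The SE was the fold change divided by the square root of F. CPM used TMM library sizes, and log values used a pseudocount of 0.5. Single genes were compared by an exact permutation test, two-sided, of the mean log2(CPM + 0.5), and correlations within 7 livers by exact permutation over 5040 orders (scipy 1.17.1). Correlations over the 11 livers at 6 h, with 100000 resamples, had been planned, but the livers fell into separate sets, so they are not reported as results, and the ranking by likeness over these 11 is a description. DESeq2 1.42.0, no filter on low counts, other normalisations, left-out livers and a replicate block were alternatives. Leaving out the 4 livers that stood apart was chosen after seeing the data. It was done in the fits and in the rho given beside the likeness ranking, which itself was not redone.

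The 10 genes and all lists were chosen with earlier results of these data known. Named beside them are, per list, the 3 genes with the highest level and the genes with the highest and lowest change between infused livers and controls, and the 5 genes ranking most like EPO and STC1. A gene that this rule names in the vascular list is not reported here. Coordinates are those of RefSeq genes on Sscrofa11.1, matched by symbol for 10 of 10. Counts of 0 were given a limit of 3 reads, for counting error only. Within groups no pair of libraries was near identical (smallest chi-square per gene 60.3), and the common biological coefficient of variation was 0.729. In simulated counts of 16481 genes, of which 200 carried a log2 change of 3, the test called 86 of these for infused livers against baseline, 124 against controls and 123 between routes. Same-numbered libraries did not deviate together across all groups (6 of 16 pairs had r over 0.1, range -0.545 to 0.528), so the numbers were not used as pairs. Arterial and portal libraries of numbers 1, 2 and 3 did so, with r = 0.528, 0.390 and 0.513, and those of number 4 did not (r = -0.082).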

Additional observations from a re-analysis of the deposited data

Results flagged for a closer look

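HIF1A in arterial infusion 1 was at 22.04 CPM, far under the other 3 livers of its group at 54.0 to 63.4 CPM. The gap to the nearest of them was 0.847 of the range of the group. Of 20 sets of 4 livers examined (10 genes in the arterial and portal infusion groups), 1 had such an isolated liver, and chance gives about 1 in 20. The same liver had the lowest VEGFA of the 13, at 34.2 CPM, and it is 1 of the 4 livers with the lowest hepatocyte marker sums at 6 h. The part of that lower marker sum in its HIF1A level was not tested.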

How the results depend on the processing

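The count of genes called by edgeR was 0 in all 6 comparisons, and it stayed 0 when any 1 library was left out and with a replicate block. The block changed no call and turned 3 differences: ANKRD37 against baseline to -0.36, BNIP3 of infused livers against controls to -0.56 and EPO between routes to 0.11. The numbers are not known to pair the livers, and 5 of 13 libraries correlated best with a library of their own number. Without the filter on low counts the calls were 30 for controls against baseline, 25 for infused livers against baseline, 19 for infused livers against controls, 5 between routes, 11 for arterial and 14 for portal infusion against controls, and VEGFA between routes turned to 0.0037. DESeq2 on the libraries compared called 166, 16, 0, 0, 0 and 3 genes in that order, and on all 13 libraries 5, 17, 1, 1, 0 and 4. Without the 4 livers that stood apart 1 gene, ENSSSCG00000059961, was called in infused livers and 1, the same, in arterial infusion against controls. The cause of these differences was not tested.

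That choice also turned PDK1 against baseline to 0.055, STC1 and BNIP3 of infused livers against controls to -0.17 and -0.46, and between routes EPO to 3.65, ADM to 0.54, BNIP3 to 0.88, PDK1 to -0.16 and HIF1A to -0.14. Without portal infusions 1 and 4, PDK1 and ANKRD37 against baseline turned to 0.032 and -0.040, BNIP3 against controls to -0.92, and between routes EPO to 5.02, STC1 to 0.87, ADM to 0.74, BNIP3 to 1.495, PDK1 to -0.24 and HIF1A to -0.41. Both choices left only portal infusions 2 and 3 in the portal group, with 0 and 3 reads of EPO. Without the mitochondrial genome genes ANKRD37 against baseline was -0.0056. The planned r of STC1 with ANKRD37 over 11 livers, which is not used as a result, was 0.10 and turned to -0.024 without arterial infusion 3 and portal infusion 1.

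With 1 liver left out, signs turned within these ranges of the log2 difference. Against baseline it was ANKRD37 (-0.26 to 0.36). For infused livers against controls it was BNIP3 (-0.46 to 0.84), EPO (-1.21 to 0.020), VEGFA (-0.19 to 0.18), NDRG1 (-0.43 to 0.43) and PDK1 (-0.034 to 0.16). Between routes it was EPO (-1.97 to 0.27), STC1 (-1.78 to 0.91), ADM (-0.81 to 0.092), BNIP3 (-1.13 to 0.58), VEGFA (-0.37 to 0.27), NDRG1 (-0.054 to 0.69), HIF1A (-0.076 to 0.41) and PDK1 (-0.029 to 0.35). Without a change of sign, differences moved by over 1.5 times for STC1 (0.13 to 1.17), ANKRD37 (0.40 to 1.63), HIF1A (0.028 to 0.75) and ADM (-0.48 to -0.033) of infused livers against controls, for ADM (0.40 to 1.26), HIF1A (-0.80 to -0.22) and PDK1 (-0.27 to -0.075) against baseline, and for EGLN3 (0.045 to 0.78) and ANKRD37 (-0.68 to -0.30) between routes. For controls against baseline this held for ADM (0.62 to 1.47), ANKRD37 (-1.58 to -0.36), BNIP3 (1.10 to 2.23), HIF1A (-1.27 to -0.51) and NDRG1 (0.92 to 1.80). STC1 against baseline stayed between 4.41 and 5.36 and EGLN3 between 1.59 and 2.43. The median of the vascular list against controls was -0.35 with the block and -0.27 without portal infusions 1 and 4, and that of the glycolysis list -0.63 without these 2 or without the 4 livers. EPO could not be fitted with at least 10 counts in every library. Depth limits EPO at baseline, where 4 and 6 reads carry its level.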
